A study of Mus musculus with 37 samples.

Results

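The collagen cross-linking enzymes are a group of 9 genes: Lox, Loxl1, Loxl2, Loxl3 and Loxl4, which encode the lysyl oxidases, Plod1, Plod2 and Plod3, which encode the lysyl hydroxylases, and Tgm2, which encodes transglutaminase 2. They were taken by name as a fixed list and not by a cut on any measured value, though earlier results of these data were known. All 9 were found in each table, among 30892 genes in the table of cultured cardiac fibroblasts (CFs), 20158 in the table of neonatal rat ventricular myocytes (NRVM) and 31053 in the single-cell tables. ENPP1 is an enzyme on the cell surface that splits ATP outside the cell into AMP and pyrophosphate, and the study asked how it changes the exchange between heart muscle cells and other cells after injury. The CFs were wild-type C57BL/6 mouse cells immortalized with the SV40 antigen, and received conditioned medium collected from NRVM (MCndM) after vehicle, ENPP1, ATP, ENPP1+ATP or AMP had been added to the NRVM. RNA was taken after 24 h or 48 h, with 2 libraries for each of the 10 combinations of medium and time. In a separate experiment the cells studied were NRVM, wild-type Sprague-Dawley cells that the labels describe as given the same 5 media for 24 h, with 3 libraries per medium. Nonmyocytes of the injured heart were sequenced as single cells 7 days after myocardial infarction, in 1 library from ENPP1CKO animals and 1 from control animals, both on C57BL/6. ENPP1CKO animals carried both Enpp1 alleles floxed and the tamoxifen-induced Col1a2CreERT driver, which acts in cells that use the Col1a2 promoter, and had tamoxifen from before the injury until the day of harvest. Control animals are labelled wild type, and the study calls its controls littermates and gives tamoxifen to the progeny of the cross without saying whether these controls were among them. How many hearts went into a library is not given in the sources used here.

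Collagen becomes strong when its chains are joined to each other. Inside the cell, lysyl hydroxylases add a hydroxyl group to lysines of the new chain. Plod1 acts mainly on the helix, Plod2 on the end peptides, where it sets the kind of cross-link found in stiff scar, and Plod3 also adds sugars to the hydroxylated lysine. Outside the cell, lysyl oxidases turn lysines and hydroxylysines into aldehydes that react with neighbouring chains; Lox and Loxl1 are known for collagen and elastin, and Loxl2, Loxl3 and Loxl4 carry scavenger receptor domains. Tgm2 joins a glutamine to a lysine and links fibronectin and other matrix proteins. In the heart these enzymes are known for the scar that replaces muscle after infarction.

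Total counts were 32184799 to 115824659 per CF library, where the highest was vehicle at 24 h replicate 1 and the next 74110869, and 13481389 to 16977980 per NRVM library. A filter on low counts left 17879 genes of the CFs and 13461 of the NRVM, and all 9 members passed it in both. The study describes its replicates in general as biological, but neither it nor the labels say whether the libraries of a medium were separate cultures, so p-values measure the spread between these libraries only, which may be technical. In bulk RNA, fewer cells of a type and less RNA per cell cannot be told apart. Of the fibroblast markers checked in CFs, Col1a1, Col1a2 and Col3a1 were abundant, while Lum, Tcf21 and Mfap5 had medians of 0.193, 2.41 and 0.0868 CPM (counts scaled to library size) over the 20 libraries. Mitochondrial genes took 2.29% to 2.32% of the counts in CFs on vehicle medium at 24 h and 2.14% to 2.25% at 48 h, against 2.46% to 3.87% and 4.34% to 4.47% on AMP medium and 2.79% to 3.34% and 5.30% to 5.37% on ENPP1+ATP medium. The part of this share in the results was not tested. The 2 AMP libraries at 24 h stood farther apart than any other CF pair, with a chi-square of 41.1 per gene between them against 6.96 to 14.2, and results that rest on 1 of them are named where they occur.

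Promoter sequence was at hand for 3 of the 9 members, Loxl4, Plod1 and Plod3, as the 250 bases before the gene's start in RefSeq (GRCm38.p6). All sequences at hand are shown, and none was chosen by the direction of its gene. In CFs at 24 h Loxl4 and Plod1 rose and Plod3 fell with ENPP1+ATP and AMP medium. Whether the sequences bear on these directions was not tested. Each is written 5′ to 3′ on the strand of its gene. Capitals mark ACGTG and GCGTG, the cores of the element that hypoxia-inducible factors bind, and GGGCGG, the GC box, each looked for on both strands, so that on the other strand ACGTG reads as CACGT and GCGTG as CACGC, while GGGCGG then reads as CCGCCC. The Loxl4 sequence lies at chr19:42612807-42613056 (minus strand), that of Plod1 at chr4:147936777-147937026 (minus strand) and that of Plod3 at chr5:136986769-136987018 (plus strand).
Loxl4: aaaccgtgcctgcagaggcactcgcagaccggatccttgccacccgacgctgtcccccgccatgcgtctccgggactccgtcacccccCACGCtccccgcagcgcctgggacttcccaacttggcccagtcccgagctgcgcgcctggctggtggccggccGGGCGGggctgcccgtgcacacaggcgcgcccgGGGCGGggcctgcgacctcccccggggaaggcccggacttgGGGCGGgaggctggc
Plod1: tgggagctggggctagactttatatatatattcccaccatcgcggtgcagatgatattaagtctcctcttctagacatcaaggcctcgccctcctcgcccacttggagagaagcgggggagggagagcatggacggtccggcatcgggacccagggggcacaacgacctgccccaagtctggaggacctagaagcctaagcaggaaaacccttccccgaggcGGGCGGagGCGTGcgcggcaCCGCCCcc
Plod3: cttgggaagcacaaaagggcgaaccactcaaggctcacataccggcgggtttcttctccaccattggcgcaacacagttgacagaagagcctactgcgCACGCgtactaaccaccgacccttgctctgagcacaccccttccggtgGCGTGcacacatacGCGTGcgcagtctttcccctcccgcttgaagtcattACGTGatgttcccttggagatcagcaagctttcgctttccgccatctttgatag

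The Loxl4 promoter was 76% G or C, held 3 GGGCGG boxes, the nearest 15 bases before the start, and 1 GCGTG core on the other strand 162 bases before it. The Plod1 promoter, at 61.6% G or C, held 1 GCGTG core 20 bases before the start and 2 GGGCGG boxes, of which the one at 28 bases was on the gene's strand and the one at 8 bases on the other. The Plod3 promoter, at 55.6% G or C, held 1 ACGTG core 54 bases and 3 GCGTG cores 152, 104 and 90 bases before the start, and no GGGCGG box. Of 32851 promoters of the same length, 38.6% held ACGTG or GCGTG and 32.7% held GGGCGG. These letters are a description of the window and not binding sites, and ACGTG overlaps the E-box CACGTG, which none of the 3 windows held.

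In CFs on vehicle medium at 24 h, Lox had the highest level per length of the 9 members, at 124 ± 0.14 CPM per kilobase of exon (mean ± SD, n = 2, as for all levels that follow). Next came Plod3 at 68.9 ± 1.22 and Loxl1 at 63.4 ± 6.58, then Loxl3 at 24.3 ± 0.0937 and Plod2 at 23.6 ± 1.51. Plod1 stood at 18.4 ± 0.596, Loxl4 at 15.2 ± 0.175, Tgm2 at 12 ± 0.223 and Loxl2 at 0.251 ± 0.0224 CPM per kilobase. Plod3 and Loxl1, and likewise Loxl3 and Plod2, differed by less than their spread, and the other neighbours in this order did not overlap. Loxl2 was near the floor of detection in these cells, with 15 to 145 counts per library over all 20 libraries, against 858 or more for each other member.

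The main question for the CFs was how MCndM from NRVM given ENPP1+ATP, or given AMP, differed from vehicle MCndM. Lox, Loxl1, Loxl3, Plod3 and Tgm2 fell in both media at both times, and Loxl4 rose in both at both times. With ENPP1+ATP medium at 24 h, 2 of the 9 members rose and 6 fell, where 49.1% of all genes tested passed the threshold (adjusted p under 0.05), and the median log2 fold change was -0.39 over the members and -0.00456 over all genes. AMP medium at 24 h raised 2 and lowered 7 members, against a background of 52.8%, with a median of -0.80 over the members and -0.00583 over all genes. At 48 h, 3 members rose and 5 fell with ENPP1+ATP medium (background 45.2%, medians -0.47 and -0.03), and 3 rose and 5 fell with AMP medium (background 44%, medians -0.38 and -0.03). The comparisons of a time share their vehicle libraries, so their values stand side by side and are not independent.

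Lox, the founding lysyl oxidase and the member with the largest falls, fell in all of these comparisons. Its level was 590.4 and 591 CPM in the vehicle libraries at 24 h, 184 and 204 with ENPP1+ATP medium and 144 and 177 with AMP medium. At 48 h the vehicle libraries had 708 and 713 CPM, the ENPP1+ATP libraries 206 and 224 and the AMP libraries 212 and 227. Every library on ENPP1+ATP or AMP medium was far below every vehicle library of its time, with no overlap. The log2 fold change with ENPP1+ATP medium was -1.61 ± 0.07 (SE, adjusted p = 8.21e-14) at 24 h and -1.73 ± 0.07 (adjusted p = 1.88e-14) at 48 h. With AMP medium it was -1.88 ± 0.07 (adjusted p = 5.13e-15) at 24 h and -1.69 ± 0.07 (adjusted p = 2.26e-14) at 48 h.

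**Figure D1:**
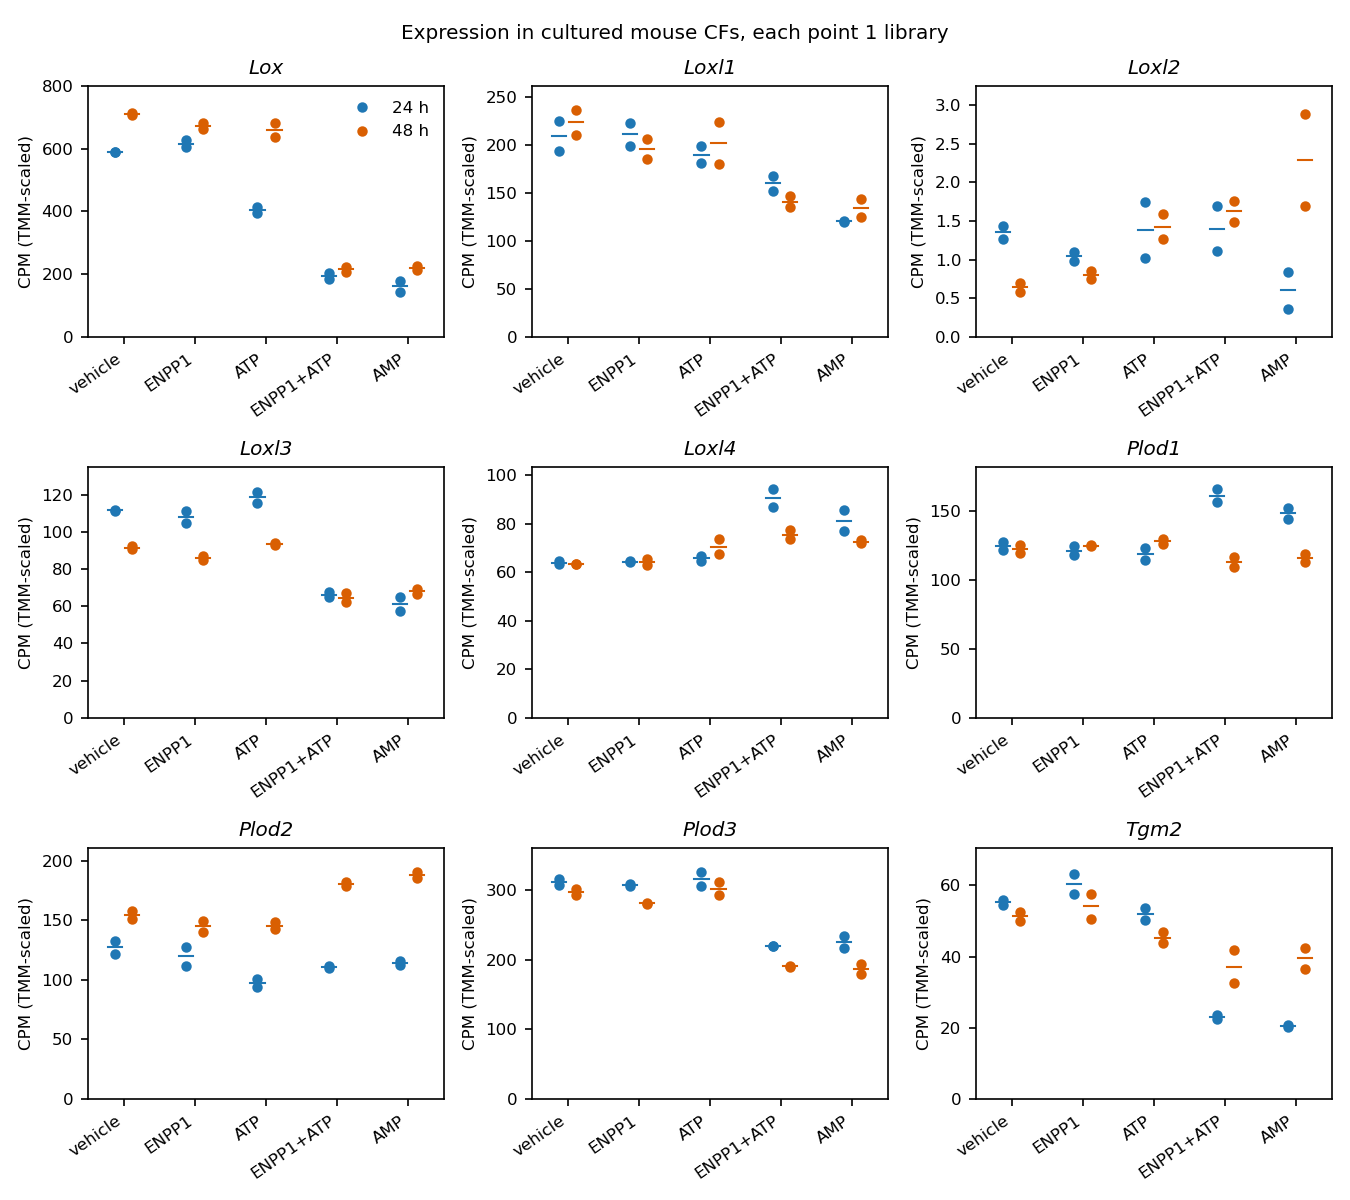
Level of each collagen cross-linking enzyme in cultured mouse CFs, as CPM scaled by TMM factors on the vertical axis, by medium on the horizontal axis, with 1 point per library, blue for 24 h and orange for 48 h, and a short line at the mean of the 2 libraries. Lox, Loxl1, Loxl3 and Plod3 are lower in the ENPP1+ATP and AMP libraries than in the vehicle and ENPP1 libraries at both times, Loxl4 is higher, Tgm2 is lowest at 24 h, and the Loxl2 axis ends near 3 CPM.

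Loxl1 (chr9:58287738-58313186, minus strand), which is needed for elastic fibres, fell less. Vehicle libraries had 225 and 194 CPM at 24 h and 236 and 210.3 at 48 h, those with ENPP1+ATP medium 167 and 152 at 24 h and 146 and 135 at 48 h, and those with AMP medium 119.9 and 121 at 24 h and 144 and 124 at 48 h. The treated libraries were all below the vehicle libraries of their time. The log2 fold change with ENPP1+ATP medium was -0.39 ± 0.11 (adjusted p = 0.0113) at 24 h and -0.67 ± 0.11 (adjusted p = 3.18e-04) at 48 h, and with AMP medium -0.80 ± 0.11 (adjusted p = 4.69e-05) and -0.74 ± 0.12 (adjusted p = 1.40e-04). The ENPP1+ATP call at 24 h was lost without vehicle replicate 1 (-0.29, adjusted p = 0.11) and without ENPP1+ATP replicate 2 (-0.32, adjusted p = 0.0949), and its adjusted p ranged from 1.03e-13 to 0.11 over all alternatives.

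Loxl3 (chr6:83034173-83052562, plus strand), which oxidizes lysines of collagen and fibronectin, stood at 111 and 112 CPM in the vehicle libraries at 24 h, at 65 and 67.4 with ENPP1+ATP medium and at 57.3 and 65 with AMP medium. By 48 h the vehicle level was lower, at 92.2 and 91.1, against 66.9 and 62.1 with ENPP1+ATP and 69.4 and 66.6 with AMP. No treated library reached the lowest vehicle library of its time. The log2 fold changes were -0.76 ± 0.06 (adjusted p = 4.49e-11) and -0.87 ± 0.06 (adjusted p = 2.47e-12) at 24 h with ENPP1+ATP and AMP medium, and -0.51 ± 0.06 (adjusted p = 6.46e-08) and -0.43 ± 0.06 (adjusted p = 7.84e-07) at 48 h. Of its exon bases 11.6% are shared with Htra2 on the opposite strand, and whether the counting used strand is not given in the sources used here.

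Loxl4 (chr19:42593982-42612813, minus strand) moved the other way. It had 63.4 and 64.5 CPM in the vehicle libraries at 24 h, 94.2 and 86.8 with ENPP1+ATP medium and 76.8 and 85.7 with AMP medium, and at 48 h 63.2 and 63.3 with vehicle, 77.3 and 73.6 with ENPP1+ATP and 72 and 73.2 with AMP medium. The treated libraries were all higher than the vehicle libraries of their time. The rises were 0.50 ± 0.06 (adjusted p = 8.39e-08) and 0.35 ± 0.06 (adjusted p = 1.46e-05) at 24 h and 0.25 ± 0.06 (adjusted p = 8.83e-04) and 0.20 ± 0.06 (adjusted p = 0.00746) at 48 h. Loxl2 (chr14:69609068-69695834, plus strand), known for its part in fibrosis of heart and other organs, was at 1.27 and 1.44 CPM on vehicle medium at 24 h, 1.69 and 1.11 with ENPP1+ATP and 0.365 and 0.837 with AMP, and at 48 h at 0.70 and 0.582 with vehicle, 1.49 and 1.76 with ENPP1+ATP and 2.88 and 1.69 with AMP. At 24 h the ENPP1+ATP libraries lay on both sides of the vehicle ones and the AMP libraries below them, and at 48 h both treated groups lay above. The log2 values were 0.05 ± 0.36 (adjusted p = 0.922) and -1.10 ± 0.37 (adjusted p = 0.0153) at 24 h and 1.33 ± 0.38 (adjusted p = 0.00567) and 1.83 ± 0.37 (adjusted p = 2.79e-04) at 48 h. These rest on few counts, and the AMP fall at 24 h was lost without AMP replicate 1 (-0.68, adjusted p = 0.171) or without vehicle replicate 2 (-1.02, adjusted p = 0.0641), and the ENPP1+ATP rise at 48 h without vehicle replicate 2 (1.20, adjusted p = 0.0587), with adjusted p from 0.00256 to 0.171 and 0.00136 to 0.0587 over the alternatives.

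Among the lysyl hydroxylases, Plod3 fell throughout, Plod1 rose at 24 h, and Plod2 fell at 24 h and rose at 48 h. Plod3 (chr5:136987019-136996648, plus strand) had 308 and 315 CPM in the vehicle libraries at 24 h, 220.3 and 219 with ENPP1+ATP medium and 217 and 234 with AMP medium, and at 48 h 302 and 292 with vehicle, 189.5 and 191 with ENPP1+ATP and 194 and 179.8 with AMP medium. All treated libraries were lower. The log2 fold changes were -0.50 ± 0.05 (adjusted p = 4.52e-09) and -0.47 ± 0.05 (adjusted p = 1.20e-08) at 24 h, and -0.64 ± 0.05 (adjusted p = 7.76e-11) and -0.67 ± 0.05 (adjusted p = 3.39e-11) at 48 h. Znhit1, on the opposite strand, shares 11.7% of its exon bases.

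Plod1 (chr4:147909753-147936767, minus strand) was at 128 and 122 CPM on vehicle medium at 24 h, at 166 and 157 with ENPP1+ATP and at 153 and 144 with AMP, all of the treated libraries above the vehicle ones. At 48 h it was 125 and 119.9 with vehicle, 109.6 and 117 with ENPP1+ATP and 119 and 113 with AMP, with the treated libraries just below. It rose by 0.37 ± 0.05 (adjusted p = 1.37e-06) and 0.25 ± 0.05 (adjusted p = 2.15e-04) at 24 h, and the values at 48 h, -0.12 ± 0.05 (adjusted p = 0.0723) and -0.08 ± 0.05 (adjusted p = 0.227), did not pass the threshold, though the first did without ENPP1+ATP replicate 2 (-0.16, adjusted p = 0.0477, range 0.0477 to 0.407). Plod2 (chr9:92542223-92608428, plus strand) had 133 and 121 CPM on vehicle medium at 24 h, 112 and 109.9 with ENPP1+ATP and 112 and 116 with AMP, and at 48 h 158 and 151 with vehicle, 179 and 182 with ENPP1+ATP and 190.3 and 186 with AMP. Its treated libraries were thus lower than vehicle at 24 h and higher at 48 h, with no overlap at either time. The log2 values were -0.20 ± 0.06 (adjusted p = 0.00511) and -0.16 ± 0.06 (adjusted p = 0.0236) at 24 h and 0.23 ± 0.06 (adjusted p = 0.00204) and 0.28 ± 0.06 (adjusted p = 2.01e-04) at 48 h. The 24 h falls of Plod2 were lost without vehicle replicate 1 (-0.14, adjusted p = 0.127 and -0.10, adjusted p = 0.279), the one with ENPP1+ATP also without ENPP1+ATP replicate 2 (-0.18, adjusted p = 0.0518), and the one with AMP without AMP replicate 1 (-0.13, adjusted p = 0.129) and with DESeq2 (-0.14, adjusted p = 0.0612). Over all alternatives their adjusted p ran from 2.42e-04 to 0.127 and from 0.00209 to 0.279.

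Tgm2 (chr2:158116402-158146436, minus strand) fell by more than any member but Lox at 24 h and by less at 48 h. Vehicle libraries had 54.5 and 56 CPM at 24 h, ENPP1+ATP libraries 23.4 and 22.5 and AMP libraries 20.9 and 20.0. At 48 h the values were 50.1 and 52.6 with vehicle, 32.5 and 41.7 with ENPP1+ATP and 36.5 and 42.5 with AMP. The treated libraries were lower than vehicle at both times, and the pairs at 48 h were wider apart than those at 24 h. The log2 fold changes were -1.27 ± 0.09 (adjusted p = 9.13e-11) and -1.43 ± 0.09 (adjusted p = 6.75e-12) at 24 h and -0.47 ± 0.09 (adjusted p = 1.58e-04) and -0.38 ± 0.09 (adjusted p = 0.00148) at 48 h. The AMP call at 48 h was lost without AMP replicate 1 (-0.26, adjusted p = 0.0512), over a range of 3.31e-07 to 0.0512. Rprd1b and Gm20412, on the opposite strand, share 8.03% and 13.7% of its exon bases.

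The summed level of 10 fibroblast markers was lower in the same media, almost all of it from Col1a1, Col1a2 and Col3a1, which are also substrates of the enzymes. It was 6871 to 7219 CPM in CFs on vehicle medium at 24 h, 3374 to 3483 with ENPP1+ATP and 2642 to 2852 with AMP, and 6744 to 7121, 3508 to 3734 and 3719 to 3968 at 48 h. With ATP medium it was lower than vehicle too, at 4958 to 5251 CPM at 24 h and 6524 to 6574 at 48 h. Dcn of the same list went the other way at 24 h, with log2 fold changes of 0.56 with ENPP1+ATP, 0.38 with AMP and 0.42 with ATP medium, while with ENPP1+ATP and AMP Pdgfra was at -2.21 and -2.91, Lum at -1.88 and -1.36, Tcf21 at -1.48 and -1.55, Dpt at -0.33 and -1.33 and Postn at -0.26 and -0.74. The folds of Lum rest on few counts, at 0.0481 to 0.336 CPM over the 20 libraries, and Tcf21 was low, at 0.654 to 4.16 CPM. The 10 macrophage markers summed to 8.48 to 8.7 CPM on vehicle medium at 24 h, 25.5 to 32.9 with ENPP1+ATP and 49.7 to 50.8 with AMP. At 48 h the sums were 9.35 to 9.40, 61.0 to 71.0 and 66.2 to 75.7 CPM. Of these Cd68 and Csf1r were higher in the treated libraries. Lyz2, at 3.47 to 6.05 CPM over the 20 libraries, went the other way at 24 h. Its log2 fold changes were -0.26 with ENPP1+ATP, -0.38 with AMP and -0.60 with ATP medium. Adgre1, C1qa, C1qb, C1qc, Mrc1, Fcgr1 and Cd163 stayed at or near 0, with highest values of 0.0598 to 0.167 CPM over the 20 libraries. The 9 smooth muscle or pericyte markers summed to 130.8 to 134.9 CPM on vehicle medium at 48 h, 360.2 to 372.9 with ENPP1+ATP and 404 to 432 with AMP, almost all of it Notch3, at 90.1 to 418.5 CPM over the 20 libraries, while Kcnj8, Abcc9, Vtn, Myh11 and Higd1b reached at most 0.758 CPM and Rgs5, Des and Mustn1 at most 9.1 CPM. The part of these markers in the results on the cross-linking enzymes was not tested.

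MCndM from NRVM given ATP without ENPP1, or ENPP1 without ATP, was the control for the combination. With ATP medium at 24 h, 2 members fell and none rose, where 11.1% of all genes were called. These were Lox, at 396 and 413 CPM, log2 -0.55 ± 0.07 (adjusted p = 1.11e-05), and Plod2, at 100.4 and 94.1 CPM, log2 -0.39 ± 0.06 (adjusted p = 3.50e-05). Both lay below the vehicle libraries, and Lox lay above every ENPP1+ATP library. At 48 h none of the 9 was called with ATP medium (background 7.83%); Lox stood at 636 and 684 CPM and its 95% interval against vehicle was -0.26 to 0.05 on the log2 scale. With ENPP1 medium no member was called at 24 h (background 0%, 0 of 17879 genes by edgeR, with 249 at an unadjusted p under 0.05 and 0 by DESeq2) nor at 48 h (background 0%, 0 genes, 743 at an unadjusted p under 0.05, 0 by DESeq2). Lox had 628 and 605 CPM with ENPP1 medium at 24 h and 681 and 662 at 48 h, and the intervals against vehicle were -0.09 to 0.22 and -0.24 to 0.07.

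ENPP1+ATP medium was also set against ATP medium. What was added to the NRVM then differed by the enzyme alone, while what the NRVM released into the collected media could differ too. Against ATP medium, ENPP1+ATP medium raised 3 members and lowered 4 at 24 h (background 43.9%), and raised 1 and lowered 6 at 48 h (background 39.5%). Lox had log2 fold changes of -1.06 ± 0.07 (adjusted p = 1.02e-10) at 24 h and -1.62 ± 0.07 (adjusted p = 1.25e-13) at 48 h, and Loxl3 of -0.84 ± 0.06 (adjusted p = 1.88e-11) and -0.53 ± 0.06 (adjusted p = 4.38e-08). Plod3 was lower, at -0.52 and -0.67, and so was Tgm2, at -1.18 and -0.29, with no overlap between the libraries at either time. Plod2 was higher than with ATP medium at both times, by 0.19 and 0.31. Plod1 was higher at 24 h (0.44) and lower at 48 h (-0.18), Loxl4 was higher at 24 h (0.46), and Loxl1 was lower at 48 h (-0.52). Plod2 at 24 h lost its call without ATP replicate 2 or ENPP1+ATP replicate 1 (adjusted p = 0.15 and 0.0725, range 0.00511 to 0.15), Plod1 at 48 h without ENPP1+ATP replicate 1 (adjusted p = 0.089, range 0.00333 to 0.089), and Tgm2 at 48 h without ENPP1+ATP replicate 1 (-0.13, adjusted p = 0.296) or ATP replicate 1 (-0.26, adjusted p = 0.0971; range 1.73e-04 to 0.296).

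Between 24 h and 48 h, Plod2 was the member that rose in every medium, by 0.28 ± 0.06 (adjusted p = 0.00384) on the log2 scale with vehicle medium, 0.28 with ENPP1, 0.58 with ATP, 0.70 with ENPP1+ATP and 0.72 with AMP medium. On vehicle medium 2 members rose and 1 fell with time (background 4.88%), on ENPP1 medium 1 rose and 1 fell (background 7.95%), and on ATP medium 2 rose and 1 fell (background 14.8%). Loxl3 was the one that fell in these 3 media, with values of -0.29, -0.33 and -0.35, and Lox rose with vehicle and ATP medium, by 0.27 and 0.71. On ENPP1+ATP medium 2 members rose and 3 fell (background 40.7%), and on AMP medium 5 rose and 3 fell (background 43.1%). Tgm2 rose by 0.69 and 0.95 there, while Plod1 fell, with values of -0.51 and -0.36, and Plod3 with -0.21 and -0.27. With AMP medium the calls of Loxl3 (0.15) and Loxl4 (-0.17) were lost without AMP replicate 1 of 48 h (adjusted p = 0.15 and 0.134), that of Loxl3 also without replicate 1 of 24 h (adjusted p = 0.392) and that of Loxl4 without replicate 2 of either time (adjusted p = 0.415 and 0.071) and without the filter on low counts (adjusted p = 0.0636), over ranges of 0.00235 to 0.392 and 0.00563 to 0.415. The vehicle rise of Lox was lost without any of its 4 libraries (adjusted p = 0.148 to 0.197, range over all alternatives 1.48e-05 to 0.197), and that of Plod2 without vehicle replicate 2 of 24 h or replicate 1 of 48 h (adjusted p = 0.129 and 0.0865, range 9.33e-05 to 0.129). The ENPP1 rise of Plod2 was lost without ENPP1 replicate 2 of 24 h or replicate 1 of 48 h (adjusted p = 0.181 and 0.0684, range 5.20e-05 to 0.181).

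The difference between the times in the effect of a medium against vehicle was tested in the same fit. For ENPP1+ATP medium it was called for 5 members, 3 higher and 2 lower at 48 h than at 24 h (background 30%), and for AMP medium for 6, 4 higher and 2 lower (background 31.7%). Tgm2 had the largest well-counted shift, 0.79 ± 0.13 (adjusted p = 5.31e-05) with ENPP1+ATP and 1.06 ± 0.13 (adjusted p = 9.32e-07) with AMP, so its fall was smaller at 48 h. Plod2 shifted by 0.43 ± 0.08 (adjusted p = 2.24e-04) and 0.44 ± 0.08 (adjusted p = 1.34e-04) and Plod1 shifted by -0.49 ± 0.07 (adjusted p = 1.28e-05) and -0.33 ± 0.07 (adjusted p = 0.00105). Loxl3 shifted by 0.25 ± 0.08 (adjusted p = 0.0194) and 0.44 ± 0.08 (adjusted p = 1.36e-04). For Lox the shifts were -0.12 ± 0.10 (adjusted p = 0.417) and 0.18 ± 0.10 (adjusted p = 0.176) and did not pass, with 95% intervals of -0.34 to 0.10 and -0.04 to 0.40, but the one with AMP medium passed without AMP replicate 2 of 24 h (0.35, adjusted p = 0.00249) and without the filter on low counts (0.20, adjusted p = 0.033), over a range of 0.00249 to 0.717. For ENPP1+ATP medium the shift of Loxl3 was lost without any of 6 of its 8 libraries (all but ENPP1+ATP replicate 2 of each time; adjusted p = 0.0506 to 0.106, range over all alternatives 0.0115 to 0.106). That of Loxl4, -0.25 ± 0.08 (adjusted p = 0.0254), was lost without ENPP1+ATP replicate 1 or vehicle replicate 1 of 24 h, ENPP1+ATP replicate 2 of 48 h or either vehicle library of 48 h (adjusted p = 0.0629 to 0.149) and without the filter on low counts (adjusted p = 0.0592), over a range of 0.013 to 0.149. That of Plod3 with AMP medium, -0.20 ± 0.07 (adjusted p = 0.0262), was lost without AMP replicate 2 of either time or vehicle replicate 1 of either time (adjusted p = 0.108 to 0.157) and without the filter (adjusted p = 0.0617), over a range of 0.0106 to 0.157.

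**Figure D2:**
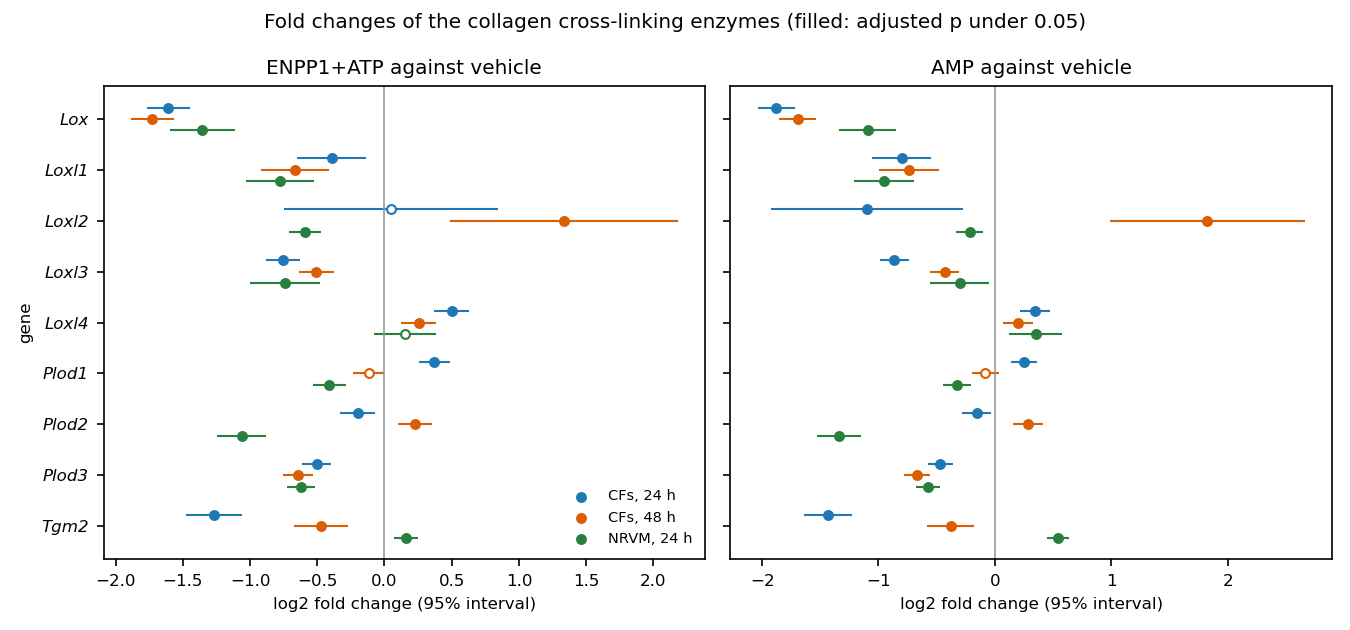
Log2 fold change against vehicle (horizontal axis, with 95% interval) of each collagen cross-linking enzyme (vertical axis) for ENPP1+ATP medium on the left and AMP medium on the right, in CFs at 24 h (blue), CFs at 48 h (orange) and NRVM at 24 h (green), filled where the adjusted p was under 0.05. Lox lies left of 0 in all 6 cases, Plod1 at 24 h lies right of 0 in CFs and left in NRVM, and Tgm2 lies left of 0 in CFs and right in NRVM.

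In the NRVM cultures most members fell with ATP, ENPP1+ATP and AMP medium. With ENPP1+ATP medium 1 member rose and 7 fell (background 56%, median log2 fold change -0.62 over the members and 0.00788 over all genes). With AMP medium 2 rose and 7 fell (background 57.2%, medians -0.32 and 0.00884), and with ATP medium 1 rose and 7 fell (background 59.9%, medians -0.43 and 0.00636). None was called with ENPP1 medium (background 0%, 0 of 13461 genes by edgeR, 693 at an unadjusted p under 0.05 and 1 by DESeq2). The 3 comparisons share the vehicle libraries. Mitochondrial genes took 8.14% to 8.35% of the counts on vehicle medium, 8.77% to 9.62% with ATP, 10.9% to 11.1% with ENPP1+ATP and 10.5% to 11.1% with AMP, and the part of this share in the falls was not tested.

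Lox had 169.9, 188 and 181 CPM in the vehicle NRVM libraries, 104, 112 and 125 with ATP medium, 68, 78.9 and 63.7 with ENPP1+ATP and 90.7, 77.2 and 84.3 with AMP. The 3 treated groups were below every vehicle library, and the ENPP1+ATP libraries were also below every ATP library. The log2 fold change was -1.35 ± 0.11 (SE, adjusted p = 7.79e-07) with ENPP1+ATP, -1.09 ± 0.11 (adjusted p = 4.28e-06) with AMP and -0.66 ± 0.11 (adjusted p = 2.05e-04) with ATP medium. Loxl1 had 149, 167 and 151 CPM on vehicle medium, 74.8, 88.6 and 79.3 with ATP, 81.6, 104 and 86.9 with ENPP1+ATP and 73.2, 73.8 and 94.4 with AMP, with log2 values of -0.94 ± 0.11 (adjusted p = 2.53e-05), -0.77 ± 0.11 (adjusted p = 1.35e-04) and -0.95 ± 0.12 (adjusted p = 2.65e-05). Its 3 treated groups lay below vehicle and overlapped each other.

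Loxl2, which was near the floor in CFs, was well counted in the NRVM cultures, at 97.4, 99.6 and 101 CPM on vehicle medium, 61.9, 66.5 and 69.5 with ENPP1+ATP, 83.8, 87.3 and 85.4 with AMP and 99, 113 and 109 with ATP. It fell with ENPP1+ATP, -0.59 ± 0.05 (adjusted p = 8.38e-13), and by less with AMP, -0.22 ± 0.05 (adjusted p = 4.93e-04), and with ATP it overlapped vehicle, 0.11 ± 0.05 (adjusted p = 0.0642), with a call only without ATP replicate 1 (0.16, adjusted p = 0.0113) or with the replicate block. Loxl3 was low, at 14.1, 15.8 and 16.5 CPM on vehicle and 8.95, 9.32 and 9.5 with ENPP1+ATP medium, and its log2 fold change was -0.74 ± 0.12 (adjusted p = 7.97e-07). Its smaller falls with AMP, -0.30 ± 0.11 (adjusted p = 0.0207), and ATP, -0.30 ± 0.11 (adjusted p = 0.0216), were lost with DESeq2 (adjusted p = 0.0511 and 0.0522). They were lost too without vehicle replicate 2 (adjusted p = 0.0592 and 0.0597) or 3 (adjusted p = 0.0896 and 0.0911), without AMP replicate 1 or 2 (adjusted p = 0.0578 and 0.0842) and without ATP replicate 1 or 3 (adjusted p = 0.0665 and 0.105), over ranges of 0.0101 to 0.0896 and 0.00869 to 0.105. Loxl4 had 13.7, 14 and 15.8 CPM on vehicle medium and 24.5, 23.8 and 28.3 with ATP, a rise of 0.82 ± 0.10 (adjusted p = 1.01e-09), against 18.4, 18.7 and 18.2 with AMP, 0.35 ± 0.10 (adjusted p = 0.0029), and 17.4, 14.2 and 16.7 with ENPP1+ATP, 0.15 ± 0.10 (adjusted p = 0.208), where the libraries overlapped vehicle.

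**Figure D3:**
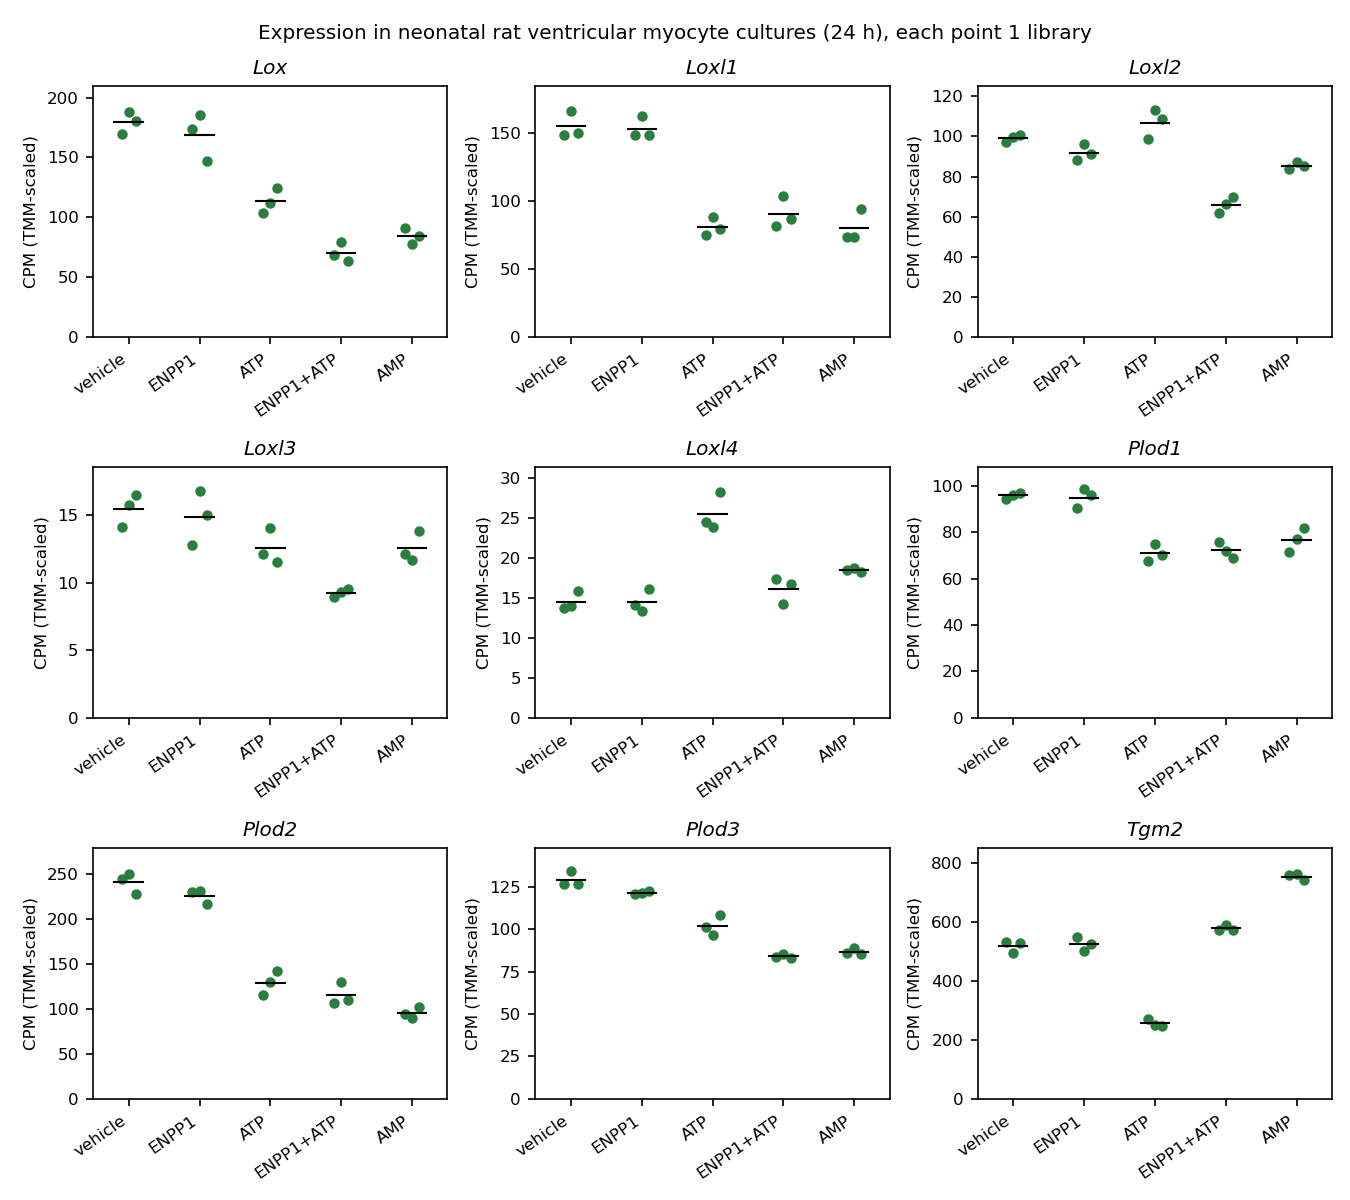
Level of each collagen cross-linking enzyme in the NRVM cultures at 24 h, as CPM scaled by TMM factors on the vertical axis, by medium on the horizontal axis, with 1 point per library and a line at the mean of the 3 libraries. Lox, Loxl1 and Plod2 are lower with ATP, ENPP1+ATP and AMP than with vehicle or ENPP1, and Tgm2 is lowest with ATP and highest with AMP.

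All 3 lysyl hydroxylases fell in the NRVM cultures with ATP, ENPP1+ATP and AMP medium. Plod2 fell the most, from 244, 249.9 and 227 CPM on vehicle medium to 115, 129.6 and 142 with ATP, 106, 129.6 and 109.7 with ENPP1+ATP and 93.5, 90.0 and 102 with AMP, with log2 values of -0.90 ± 0.08 (adjusted p = 3.53e-07), -1.06 ± 0.08 (adjusted p = 7.83e-08) and -1.34 ± 0.08 (adjusted p = 7.12e-09). Plod1 went from 94.5, 96.2 and 97 CPM to 75.9, 72 and 68.9 with ENPP1+ATP and 71.5, 76.9 and 81.8 with AMP, -0.41 ± 0.05 (adjusted p = 1.71e-08) and -0.32 ± 0.05 (adjusted p = 1.98e-06). Plod3 went from 127, 135 and 127 CPM to 83.6, 85.5 and 83 with ENPP1+ATP and 86.1, 89 and 85.3 with AMP, -0.62 ± 0.05 (adjusted p = 4.25e-15) and -0.57 ± 0.05 (adjusted p = 4.74e-14). No treated library of these 3 genes reached its vehicle range. Plod1 had risen in CFs in the same media at 24 h, a contrast between separate fits that was not tested.

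Tgm2 moved in both directions in the NRVM cultures. It had 531, 494 and 529 CPM on vehicle medium, 549.6, 501 and 527 with ENPP1, 272, 252 and 248 with ATP, 574, 592 and 573 with ENPP1+ATP and 759.5, 763 and 743 with AMP. The ATP libraries were thus far below vehicle and the ENPP1+ATP and AMP libraries above it, with no overlap. The log2 fold change was -1.01 ± 0.04 (adjusted p = 3.73e-24) with ATP, 0.16 ± 0.04 (adjusted p = 9.20e-04) with ENPP1+ATP and 0.54 ± 0.04 (adjusted p = 3.48e-15) with AMP. Between ENPP1+ATP and ATP medium 1 member was higher and 5 were lower (background 27.5%), and the higher one was Tgm2, by 1.17 ± 0.04 (adjusted p = 2.92e-25). The lower ones were Lox (-0.69), Loxl2 (-0.70), Loxl3 (-0.44), Loxl4 (-0.67) and Plod3 (-0.28). Over the alternatives run, the adjusted p of the Tgm2 rise against vehicle with ENPP1+ATP medium ran from 4.63e-04 to 0.0172.

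Fibroblast markers were abundant in the NRVM cultures. The summed level of 9 fibroblast markers was 24762 to 26150 CPM on vehicle medium and 24916 to 25300 on ENPP1 medium, against 10382 to 11715 with ATP, 8288 to 8753 with ENPP1+ATP and 11536 to 12314 with AMP. The 10 cardiomyocyte markers summed to 33051 to 34201 CPM on vehicle medium, 19164 to 20427 with ATP, 28615 to 29807 with ENPP1+ATP and 32925 to 34806 with AMP. The 9 smooth muscle or pericyte markers summed to 2188 to 2308 CPM on vehicle medium, 1861 to 1917 with ATP, 1737 to 1748 with ENPP1+ATP and 1769 to 1858 with AMP, most of it Des, which muscle cells also express. The 9 endothelial markers summed to 30.5 to 38.2 CPM on vehicle medium, 64.8 to 91.1 with ATP, 45.9 to 50.5 with ENPP1+ATP and 39.5 to 103.7 with AMP. The 8 macrophage markers summed to 4.56 to 5.44 CPM on vehicle medium, 15.1 to 16.7 with ATP, 8.94 to 11.5 with ENPP1+ATP and 9.81 to 12.3 with AMP, with C1qa, C1qb and C1qc each at a median of 0 over the libraries. The fibroblast sum was thus lower in the 3 media where most cross-linking enzymes were lower, and it is carried by Col1a1 and Col3a1. Singly the list went both ways: with ENPP1+ATP and AMP medium the log2 fold changes were -1.58 and -1.11 for Col1a1, -1.63 and -1.09 for Col3a1, -1.51 and -1.27 for Postn, -1.40 and -1.20 for Pdgfra and -2.29 and -2.50 for Tcf21, but 0.25 and 0.95 for Lum, 0.85 and 0.91 for Mfap5, 0.13 and 0.36 for Dpt and 0.07 and 0.18 for Dcn. The part of these markers in the falls of the enzymes was not tested.

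Other genes of collagen assembly were taken from 6 lists: prolyl hydroxylases and collagen glycosyltransferases, chaperones and secretion factors, enzymes of propeptide cleavage with activators of lysyl oxidase, copper delivery, other transglutaminases, and the substrates. Of the 48 partner genes, 43 passed the filter in CFs and 38 in NRVM. In CFs, ENPP1+ATP medium raised 1 and lowered 31 at 24 h, where 49.1% of all genes were called, and raised 5 and lowered 29 at 48 h (45.2%). AMP medium raised 1 and lowered 34 at 24 h (52.8% of all genes) and raised 5 and lowered 29 at 48 h (44%). ATP medium lowered 28 and raised 0 at 24 h (11.1%), and at 48 h raised 2 and lowered 5 (7.83%). ENPP1 medium changed none at either time. In NRVM, 1 rose and 32 fell with ENPP1+ATP (56% of all genes called), 0 rose and 30 fell with AMP (57.2%), and 3 rose and 33 fell with ATP (59.9%), while ENPP1 changed none. The median log2 fold change of the partners was -0.56 and -0.74 in CFs at 24 h with ENPP1+ATP and AMP, and -0.78 and -0.72 in NRVM, against -0.00456, -0.00583, 0.00788 and 0.00884 over all genes.

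All 6 substrates fell in CFs at 24 h with ENPP1+ATP and AMP medium (49.1% and 52.8% of all genes called) and also with ATP medium (11.1%), which lowered 8 of 12 prolyl hydroxylases and glycosyltransferases, 8 of 14 genes of propeptide cleavage and 5 of 7 chaperones as well, and the partner genes named here each passed the threshold. Col3a1, a fibrillar collagen of young scar, had log2 fold changes of -1.65 ± 0.07 with ENPP1+ATP and -2.51 ± 0.07 with AMP, and Col1a2 one of -1.66 ± 0.06 with AMP. Prolyl hydroxylases and glycosyltransferases fell in 9 of 12 with ENPP1+ATP and with AMP medium at each time (45.2% and 44% of all genes called at 48 h). The rise at 48 h was P3h2, a prolyl 3-hydroxylase, by 0.48 ± 0.08 and 0.39 ± 0.08 with ENPP1+ATP and AMP. Of 14 genes of propeptide cleavage and lysyl oxidase activation, 10 fell with ENPP1+ATP and 12 with AMP at 24 h, and 9 fell and 2 rose with each at 48 h. Among them Adamts14, a procollagen peptidase, fell at 24 h with ENPP1+ATP (-1.45 ± 0.09), and Fbln5, which ties Loxl1 to elastic fibres, fell at 48 h (-1.81 ± 0.05 and -1.73 ± 0.05). Fmod, which binds collagen and Lox, fell as well (-2.20 ± 0.27 and -1.67 ± 0.25), and Tll2, a relative of the propeptidase Bmp1, rose by 1.31 ± 0.24 and 1.78 ± 0.24. Collagen chaperones and secretion factors fell in 5 and 6 of 7 at 24 h, and in 3 and 4 of 7 at 48 h.

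Copper delivery was mixed, with 1 rise and 0 falls of 3 genes at 24 h and 2 rises and 1 fall at 48 h with both ENPP1+ATP and AMP medium. Of all genes, 49.1% and 52.8% were called in these 2 media at 24 h and 45.2% and 44% at 48 h. Atp7a, the pump that loads copper onto lysyl oxidases, rose in CFs by 0.50 ± 0.07 and 0.54 ± 0.07 at 24 h with ENPP1+ATP and AMP and by 0.30 ± 0.08 at 48 h with ENPP1+ATP, and Atox1, its copper chaperone, rose by 0.36 ± 0.07 at 48 h with AMP. Of other transglutaminases 1 of 6 could be tested in CFs. This was Tgm5, at 1.42 and 1.22 CPM on vehicle medium at 24 h, 0.612 and 0.294 with ENPP1+ATP and 0.486 and 0.196 with AMP, with log2 fold changes of -1.55 ± 0.49 and -2.04 ± 0.50; at 48 h it was called lower too, from a level too low for a fold to be read. In NRVM the 3 largest falls with ENPP1+ATP medium were those of Adamts14 (-2.28 ± 0.21), Eln, which encodes elastin (-1.65 ± 0.44), and Col3a1 (-1.63 ± 0.05). With AMP medium they were those of Adamts14 (-2.76 ± 0.22), Tgm1 (-1.46 ± 0.21) and Postn, a matricellular protein that helps Lox mature (-1.27 ± 0.06). The rise there with ENPP1+ATP was Tmem38b, a channel of the endoplasmic reticulum (0.45 ± 0.10).

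Over the 20 CF libraries, the genes most like each member in log2 CPM were found among 10882 genes by Pearson's r, as a description, since libraries of a medium share its effect. They were Pofut1 (r = 0.992) and Lgi2 (r = 0.990) for Lox, Phf6 (r = 0.965) and Htra1 (r = 0.962) for Loxl1, Ctnnb1 (r = 0.859) and Fkbpl (r = 0.844) for Loxl2, Keap1 (r = 0.986) and Slc30a4 (r = 0.983) for Loxl3 and Slc26a2 (r = 0.953) and Ttk (r = 0.947) for Loxl4. For the hydroxylases they were Pih1d1 (r = 0.956) and Cep78 (r = 0.951) for Plod1, Plxdc2 (r = 0.971) and Qpct (r = 0.930) for Plod2 and Ghitm (r = 0.981) and Bcat1 (r = 0.981) for Plod3, and for Tgm2 Ctdsp2 (r = 0.972) and Mnt (r = 0.970). Among the members themselves, Lox went with Loxl1 (r = 0.901), Loxl3 with Plod3 (r = 0.904), and Tgm2 ran against Loxl4 (r = -0.908).

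In the injured heart, the single-cell libraries held 7460 barcodes from ENPP1CKO and 5347 from control animals, of which 7262 and 5237 were kept, and 68 barcodes occurred in both. Fibroblast-like cells numbered 3666 and 1780, macrophage-like cells 2034 and 2519, endothelial-like cells 934 and 192, and smooth muscle or pericyte-like cells 159 and 77. Names come from marker genes, and 126 and 235 cells stayed unnamed. Enpp1 in fibroblast-like cells was at 28.3 CPM in the ENPP1CKO library against 127 in the control, log2 -2.17 (-2.32 to -2.01) with its exact 95% interval. Levels below are CPM of the counts summed over a class, with exact 95% Poisson intervals in parentheses that cover counting error only. With 1 library per genotype no difference was tested.

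Lox and Loxl1 were highest in fibroblast-like cells. Lox was at 860.4 CPM (842 to 879) in control fibroblast-like cells, 149 CPM (113 to 194) in smooth muscle or pericyte-like, 16.1 CPM (7.35 to 30.5) in endothelial-like and 16.1 CPM (13.5 to 19) in macrophage-like cells. Loxl1 was at 959 CPM (939.9 to 979), 288 CPM (236 to 347), 26.8 CPM (15 to 44.2) and 21.7 CPM (18.7 to 25.1) in the same order. Their values in macrophage-like cells were 1.87% and 2.27% of those in fibroblast-like cells, where the summed fibroblast genes Col1a1, Col1a2, Col3a1 and Dcn were at 1.82%. Singly these 4 genes were at 1.40% to 2.01%, a range that held Lox and lay below Loxl1. With the summed share of 1.82% (1.59% in the ENPP1CKO library) of the fibroblast-like profile subtracted, Lox kept 0.381 CPM and Loxl1 4.25 CPM in control macrophage-like cells, and 1.53 and 7.05 CPM in those of the ENPP1CKO library. In control endothelial-like cells Lox and Loxl1 were at 1.87% and 2.79% of the fibroblast level, where the summed fibroblast genes were at 2.91%. In the ENPP1CKO library these shares were 2.49%, 2.03% and 2.51%. With the summed share subtracted, both genes were at 0 CPM in endothelial-like cells of both libraries. In the control the summed share was raised by Dcn, at 5.21%. Col1a1, Col1a2 and Col3a1 were at 1.70%, 2.37% and 2.18% there, below Loxl1, which had 15 counts. The 0 CPM of Loxl1 in the control thus rests on Dcn. In the ENPP1CKO library the 4 genes were singly at 2.40% to 2.58%, above Loxl1. The part of free RNA in the droplets in these values was not tested beyond this subtraction. In smooth muscle or pericyte-like cells the same fibroblast genes summed to 28.2% in the control and 14.6% in the ENPP1CKO library. Singly, Dcn was at 9.08% and 9.24% there. Col1a1, Col1a2 and Col3a1 were at 33.7% to 36.2% in the control and 14.3% to 18.3% in the ENPP1CKO library. Lox and Loxl1 were at 17.3% and 30% in the control, between Dcn and the collagens. In the ENPP1CKO library they were at 18.6% and 22.4%, above each of these genes, Lox only just. The part of fibroblast RNA in these levels was not tested.

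Loxl2 was at 125 CPM (119 to 133) in control fibroblast-like cells and at 157 CPM (119.6 to 203) in smooth muscle or pericyte-like cells, with intervals that overlapped, and in these Loxl2 stood at 125.2% of the fibroblast level, above the share of the fibroblast genes. In smooth muscle or pericyte-like cells of the ENPP1CKO library it was at 67.9 CPM (45.5 to 97.5), log2 -1.21 (-1.90 to -0.55) against control from 29 and 59 counts, where the share of the fibroblast genes was lower too. The log2 ratio of Loxl3 there was -0.86 (-1.90 to 0.13), from 15 and 24 counts. Ratios between the libraries were planned for fibroblast-, macrophage- and endothelial-like cells only, and the share over all genes was not computed for this class. Lox, Loxl1, Plod2 and Plod3 were lower there too. Plod1, at 46.8 against 39.9 CPM, and Tgm2, at 39.8 against 32.0 CPM, were higher in the ENPP1CKO library. Median counts per cell were 2022 in ENPP1CKO and 3984 in control cells of the class. In the control library Loxl3 was at 178 CPM (170.0 to 187) in fibroblast-like and 63.9 CPM (40.9 to 95.1) in smooth muscle or pericyte-like cells. Loxl4 was near the floor of detection, with 5 counts in control and 9 in ENPP1CKO fibroblast-like cells, or 0.513 CPM (0.167 to 1.2) and 0.558 CPM (0.255 to 1.06), and 0 or 1 count in each other class. In smooth muscle or pericyte-like cells of the control library its 0 counts had an interval that ended at 9.82 CPM. The cultured CFs on vehicle medium at 24 h had 63.4 and 64.5 CPM of Loxl4 and 1.27 and 1.44 CPM of Loxl2 by another assay, so these values stand beside those of the tissue without a comparison.

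**Figure D4:**
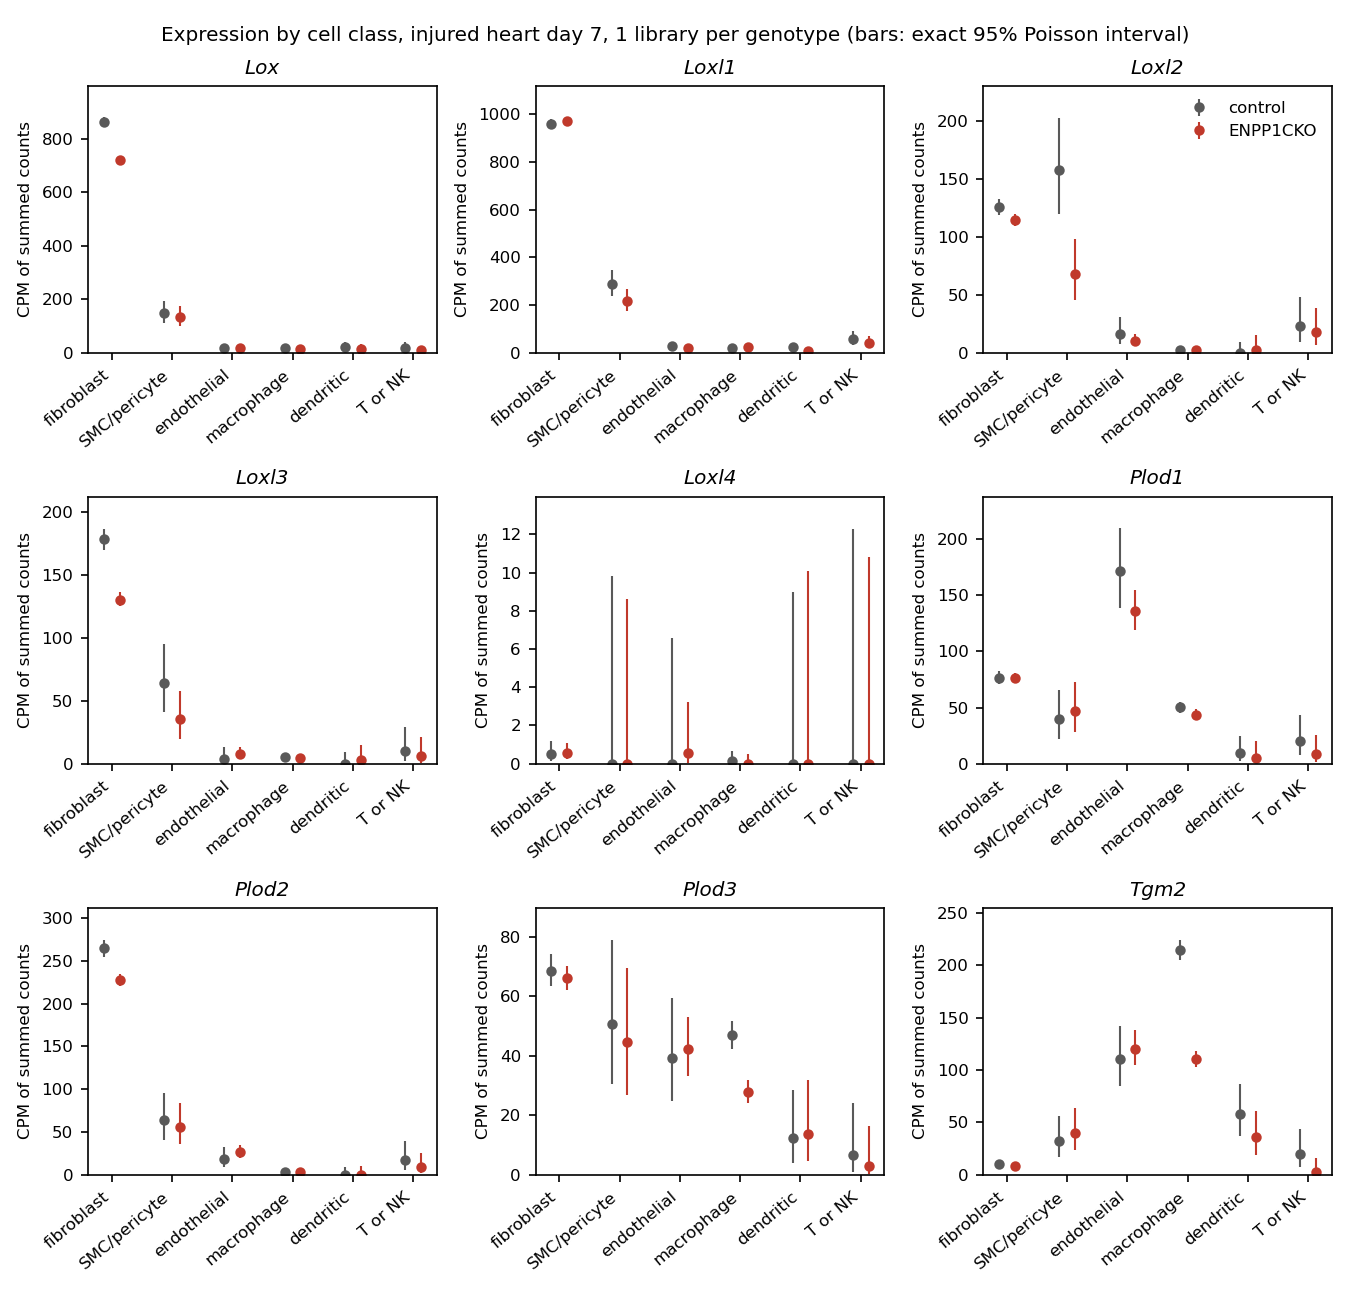
Level of each collagen cross-linking enzyme by cell class in nonmyocytes of the injured heart at day 7, as CPM of summed counts on the vertical axis, with gray points for the control and red points for the ENPP1CKO library and bars for the exact 95% Poisson interval. Lox, Loxl1, Loxl3 and Plod2 are high in fibroblast-like cells, Plod1 is highest in endothelial-like cells, and Tgm2 is near 10 CPM in fibroblast-like and above 100 CPM in endothelial-like and macrophage-like cells.

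The hydroxylases were spread over more classes. Plod2 followed the lysyl oxidases, at 265 CPM (255 to 275) in control fibroblast-like cells and 3.19 CPM (2.1 to 4.64) in macrophage-like cells. Plod1 was higher in endothelial-like cells, 171 CPM (139 to 209), than in fibroblast-like cells, 76.6 CPM (71.2 to 82.3), with intervals that did not overlap, and the ENPP1CKO library had the same order, at 136 and 76.7 CPM. Plod3 was at 68.6 CPM (63.5 to 74) in control fibroblast-like, 46.9 CPM (42.4 to 51.7) in macrophage-like and 39.3 CPM (24.6 to 59.5) in endothelial-like cells. These are 68.4% and 57.3% of the fibroblast level, far above the 1.82% and 2.91% of the fibroblast genes. Among the 3 largest classes Tgm2 was lowest where the lysyl oxidases were highest: 10.2 CPM (8.26 to 12.4) in control fibroblast-like cells, 111 CPM (84.9 to 142) in endothelial-like and 215 CPM (205 to 225) in macrophage-like cells. Among the small classes, 33 counts in 97 control neutrophil-like cells gave 406 CPM (279 to 570.0), and 24 counts in 95 control dendritic-like cells gave 58.4 CPM (37.4 to 86.9).

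The comparison of ENPP1CKO with control asked what loss of Enpp1 in Col1a2 cells did to the large classes. In fibroblast-like cells no member reached 1.5-fold in either direction among the 8 with enough counts (at least 20 in both libraries together), where 14% of all genes did; with every cell thinned to 1000 counts 1 did, Loxl3, at -0.60. The largest value was that of Loxl3, at 130.4 CPM in ENPP1CKO and 178 in control cells, log2 -0.45 (-0.54 to -0.36). Lox was at 719 and 860.4 CPM, -0.26 (-0.30 to -0.22), and Plod2 at 228 and 265 CPM, -0.22 (-0.29 to -0.14). Loxl1 at 0.02 (-0.02 to 0.05), Plod1 at 0.00 (-0.13 to 0.14) and Plod3 at -0.05 (-0.20 to 0.09) had intervals that held 0, as did Tgm2 at -0.29 (-0.68 to 0.10), and Loxl2 stood at -0.14 (-0.24 to -0.03). The sign of Tgm2 depended on the processing: its log2 ratio was 0.12 with free RNA of macrophage-like cells subtracted (7.34 CPM in ENPP1CKO and 6.74 in control) and -1.08 with the mesothelial cluster kept in the class, a choice added after seeing the data.

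Fibroblast-like cells fell into 4 clusters, led by Thbs4 (2143 ENPP1CKO and 810 control cells), Clec3b (1355 and 604), Ifit3 (106 and 81) and Col11a1 (62 and 285). The class values of the 2 libraries thus rest on different mixes of clusters. Loxl3 was lower in the ENPP1CKO library in each: 158 against 205 CPM in the first, 73.3 against 111 in the next, 168 against 201 in the third and 137 against 201 in the last. The log2 ratios were -0.37 (-0.49 to -0.25), -0.60 (-0.83 to -0.38), -0.27 (-0.69 to 0.16) and -0.56 (-0.95 to -0.18), with 1 interval, that of the Ifit3 cluster, that held 0. Lox was lower with Thbs4, at 776 against 959 CPM, -0.31 (-0.36 to -0.25), and with Clec3b, -0.18 (-0.27 to -0.10). In the cluster led by Col11a1, whose leading genes include Acta2 and Tagln of the contractile apparatus, it was at 963 and 924 CPM, 0.06 (-0.09 to 0.20), and in the Ifit3 cluster at 716 and 719.9.

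**Figure D5:**
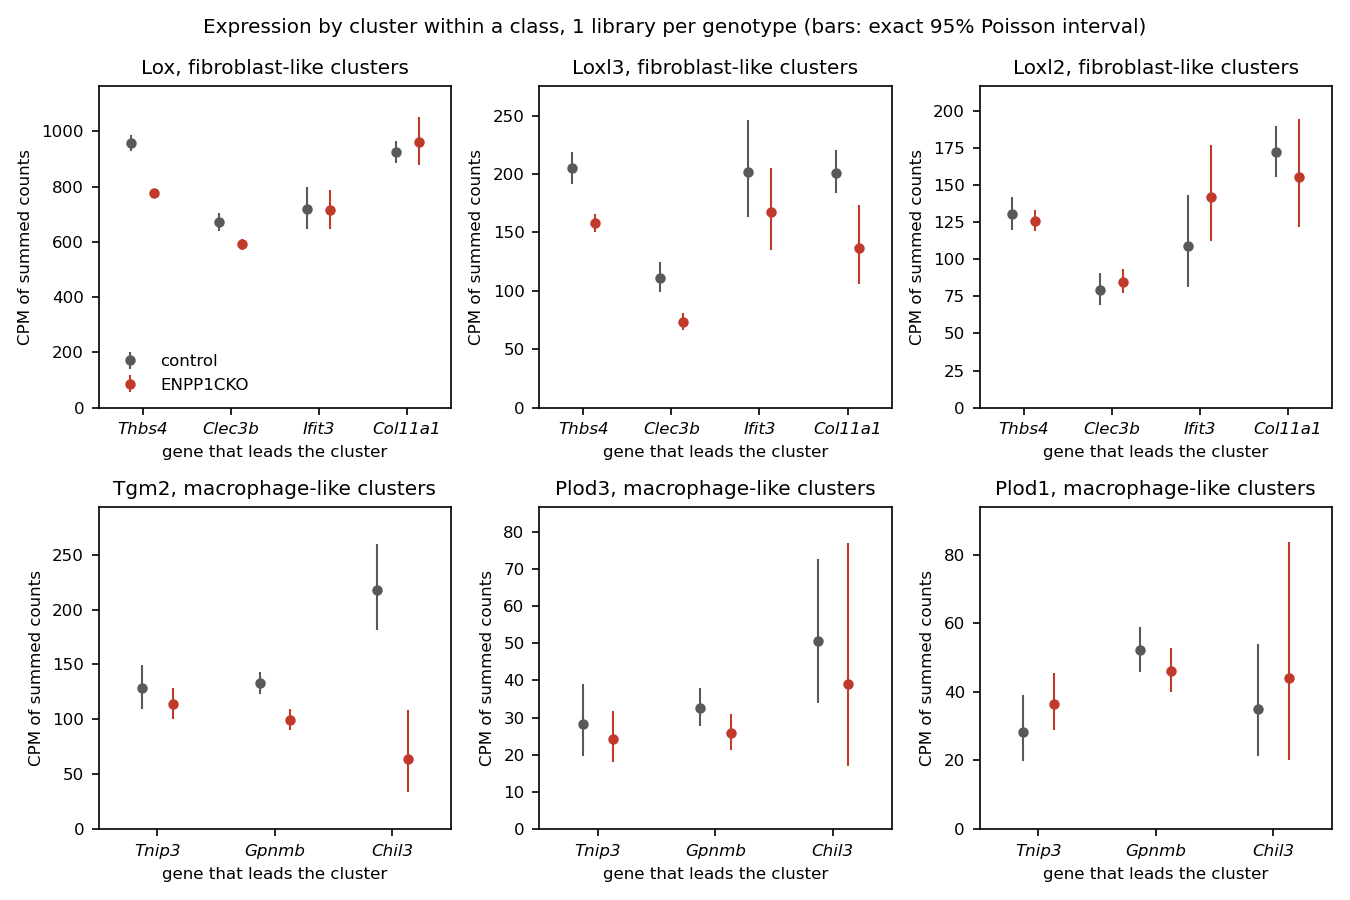
Level of Lox, Loxl3 and Loxl2 in the 4 fibroblast-like clusters (top) and of Tgm2, Plod3 and Plod1 in 3 macrophage-like clusters (bottom), as CPM of summed counts on the vertical axis, with clusters named by their leading gene on the horizontal axis, gray points for the control and red points for the ENPP1CKO library, and bars for the exact 95% Poisson interval. Loxl3 lies lower in the ENPP1CKO library in all 4 fibroblast-like clusters.

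In macrophage-like cells 2 of 8 members were past 1.5-fold, both lower in the ENPP1CKO library. Of all genes 19.1% were past it, 458 higher and 1613 lower. The count of members was 5 with doublets kept and 4 with free RNA subtracted, and these 2 members were past it in each. Tgm2 stood at 110.4 CPM against 215 in the control library, -0.96 (-1.08 to -0.84), and Plod3 at 27.7 and 46.9, -0.76 (-1.01 to -0.51). The clusters of the class described here were led by Gpnmb (1283 ENPP1CKO and 1200 control cells), Tnip3 (635 and 346) and Chil3 (64 and 162). The rest of the class, 52 ENPP1CKO and 811 control cells, is not described on its own, so the class values of the 2 libraries rest on different mixes of clusters. Tgm2 was at 99.6 and 133 CPM with Gpnmb, -0.42 (-0.59 to -0.24), at 114 and 129 with Tnip3, -0.18 (-0.47 to 0.12), and at 63.6 and 218 with Chil3, -1.78 (-2.73 to -0.95). Over these 3 clusters alone, a choice made after seeing the data, the log2 ratios were -0.43 for Tgm2 and -0.37 for Plod3, and no member was past 1.5-fold.

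In endothelial-like cells 1 of 7 members was past 1.5-fold, where 26.6% of all genes were, and the count was 3 with a stricter cell filter or with doublets kept and 2 with TMM scaling. As described here this was Loxl2, from 17 counts in ENPP1CKO and 9 in control cells, -0.71 (-1.96 to 0.64). The well-counted members there were Plod1 at 136 and 171 CPM, -0.34 (-0.68 to 0.02), and Tgm2 at 120.3 and 111 CPM, 0.12 (-0.30 to 0.55), and both intervals held 0. Endothelial-like cells had medians of 1475.5 counts per cell in ENPP1CKO and 2602.5 in control animals. Of the partner genes, 1 was past 1.5-fold higher and 4 lower of 41 in fibroblast-like cells (14% of all genes either way). P4ha2 (log2 -0.61), P4ha3 (-0.92), Adamts14 (-1.21) and Thbs1 (-0.82) were lower and Colgalt2 (1.96) higher (named after their values were seen). Adamts14 rests on 15 counts in ENPP1CKO and 21 in control cells (-2.27 to -0.19), and Colgalt2 on 90 and 14 (1.14 to 2.88). In macrophage-like cells 8 were lower and 0 higher of 36 (19.1% of all genes, 458 higher and 1613 lower). In endothelial-like cells 3 were higher and 8 lower of 34 (26.6%). These shares were near those of all genes.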

How the data were processed

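Counts of reads per gene in 20 libraries of cultured mouse CFs and 15 of NRVM, and counts of molecules per gene and cell in 2 single-cell libraries of nonmyocytes, were used as deposited by the authors, with no normalization. The submitters' processing notes name STAR 2.5.3a, Cell Ranger, mm10 and rn6. The strand setting of the counting is not given in the sources used here. Bulk counts were filtered (filterByExpr), scaled by TMM and tested with edgeR 4.0.16 (quasi-likelihood, robust, all groups of an experiment in 1 fit, R 4.3.3, limma 3.58.1), with Benjamini-Hochberg adjustment over all genes tested and a threshold of 0.05; the script was tested on simulated data. CPM levels are scaled by TMM factors. Levels per length used exon lengths of GRCm38 (GENCODE), whose coordinates are given for the members.

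Cells under 200 genes or over 20% mitochondrial counts were dropped, predicted doublets (Scrublet, per library, 1.93% and 1.35% of barcodes) were removed, and cells were clustered with scanpy 1.11.5 (2000 variable genes without the 57 member and partner genes, 30 components, 15 neighbours, Leiden resolution 0.5). A cluster was named from marker lists; 1 cluster led by mesothelial genes was left unnamed after the clusters were seen. Of the macrophage-like clusters, 1 is not reported here on its own. Counts were summed per class and library. Genes with at least 20 counts in both libraries together and a ratio of at least 1.5-fold were counted as past that size.

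Alternatives were DESeq2 1.42.0, relative log expression factors, no filter, the replicate number as a block and leaving out each library, and for single cells other filters, a resolution of 1.0, doublets kept, thinning to 1000 counts, TMM and subtraction of free RNA. Taking the macrophage-like clusters led by Gpnmb, Tnip3 and Chil3 only, leaving out the Col11a1 cluster, and keeping the mesothelial cluster, were chosen after seeing the data. All 9 members were named; of the 6 partner lists, up to 3 largest rises and falls per comparison with ENPP1+ATP or AMP; and the 2 genes most like each member. Members and lists were chosen with earlier results of these data known.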

Additional observations from a re-analysis of the deposited data

Results flagged for a closer look

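The effect of a medium on several members differed between 24 h and 48 h in CFs by a test of the difference itself (edgeR, adjusted over all genes). With ENPP1+ATP medium the log2 effect at 48 h minus that at 24 h was 0.79 for Tgm2, 0.43 for Plod2, 0.25 for Loxl3, -0.25 for Loxl4 and -0.49 for Plod1. With AMP medium it was 2.92 for Loxl2, from 15 to 145 counts per library, 1.06 for Tgm2, 0.44 for Plod2, 0.44 for Loxl3, -0.20 for Plod3 and -0.33 for Plod1. Leaving out single libraries ended the calls of Loxl3 (6 of 8 libraries) and Loxl4 with ENPP1+ATP and of Plod3 with AMP (adjusted p up to 0.106, 0.149 and 0.157), and those of Loxl4 and Plod3 also ended without the filter on low counts (adjusted p = 0.0592 and 0.0617).

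For some members the libraries on a medium lay on opposite sides of vehicle in CFs and NRVM at 24 h; the difference was not tested, since the tables are of separate species and fits. For Plod1 the log2 fold changes in CFs and NRVM were 0.37 and -0.41 with ENPP1+ATP medium and 0.25 and -0.32 with AMP medium. For Tgm2 they were -1.27 and 0.16 with ENPP1+ATP medium and -1.43 and 0.54 with AMP medium. For Loxl3 with ATP medium they were 0.0874 in CFs, which did not pass the threshold, and -0.30 in NRVM, where the call was lost with DESeq2 (adjusted p = 0.0522) and without any of 4 libraries (adjusted p = 0.0597 to 0.105).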

How the results depend on the processing

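No member's called difference changed sign. Of the CF differences recomputed, 1236 kept their direction and side of the threshold, 47 lost the call and 13 gained it; in NRVM these numbers were 435, 10 and 5. Without the filter on low counts, ENPP1 medium called 26 genes in CFs at 24 h, 180 at 48 h and 14 in NRVM, against 0 with it, and ATP medium called 1 member, Loxl2, in CFs at 48 h; DESeq2 called 1 gene with ENPP1 medium in NRVM. With each library left out in turn, the genes called in CFs were 920 to 1205 (1983 with all libraries) with ATP medium at 24 h, 646 to 929 (1400) with ATP medium at 48 h and 0 to 129 (0) with ENPP1 medium at 48 h. Between 24 h and 48 h they were 235 to 440 (873) with vehicle, 352 to 1077 (1421) with ENPP1 and 1387 to 1735 (2643) with ATP medium. Members called between the times were then 1 to 2 (3) with vehicle and 1 to 2 (2) with ENPP1 medium, and members whose ENPP1+ATP effect differed between the times were 3 to 5 (5); the causes were not tested.

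The replicate numbers did not pair the samples: deviations of same-numbered samples correlated at -0.112 to 0.277 over 90 pairs of same-numbered CF samples, 6 of them over 0.1 (with 2 libraries a group each value occurs for both numbers), and at -0.166 to 0.124 over 30 pairs of NRVM samples. With the replicate number as a block, ENPP1+ATP medium at 24 h called 8933 genes in CFs against 8787, and the members called were the same in number except for Loxl1 gained against ATP medium at 24 h (adjusted p = 0.0423), Lox gained between the times with ENPP1+ATP medium (adjusted p = 0.0481) and Loxl2 gained in NRVM with ATP medium (adjusted p = 0.0492).

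In single cells, members past 1.5-fold in endothelial-like cells were 3 when cells under 500 genes or over 10% mitochondrial counts were dropped, 3 with doublets kept and 2 with TMM, against 1. In macrophage-like cells they were 5 with doublets kept, 4 with free RNA subtracted and 0 over the clusters led by Gpnmb, Tnip3 and Chil3 only, against 2. In fibroblast-like cells they were 1 with cells thinned to 1000 counts (Loxl3, log2 ratio -0.60) and 1 with the mesothelial cluster kept (Tgm2, log2 ratio -1.08), against 0. Leaving out the Col11a1 cluster kept each count, though 2 log2 ratios and 3 levels moved with it. Of the single-cell log2 ratios recomputed, 24 moved out of their interval and 203 did not, 9 of the 24 with thinning, and of the levels 25 moved and 353 did not. The causes were not tested. Depth limits Loxl2 in CFs and Loxl4 in the heart, and 1 library per genotype allows no test.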
